A study of Homo sapiens with 6 samples.

Results

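HP1 and H3K9 methylation genes are the 9 genes whose row name in the deposited expression table is CBX1, CBX3, CBX5, SUV39H1, SUV39H2, SETDB1, EHMT1, EHMT2 or TRIM28. All 9 were found among 50868 genes. They were chosen by name, because Aurora B phosphorylates histone H3 on serine 10, beside the lysine that HP1 binds. The choice of these genes and of the lists below was made with earlier results of these data known. The shares called among them are therefore descriptions and not tests. RNA was sequenced from CUTLL1, a human cell line of T-cell acute lymphoblastic leukaemia (T-ALL). The cells received an AURKB shRNA (shAURKB, 3 libraries) or a control shRNA named for GFP (shGFP, 3 libraries) by lentivirus, were placed under puromycin, and were collected at 48 h. Lentiviral infection is given by the design text, while the sample characteristics say transfected. Both arms share the line, the means of delivery and the selection. The sources used here do not give the number or sequence of the hairpins.

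Heterochromatin protein 1 (HP1) reads methylated lysine 9 of histone H3 through its chromodomain and recruits silencing factors through its chromoshadow domain. SUV39H1 and SUV39H2 write that mark at pericentric repeats, SETDB1 writes it at retroelements and KRAB zinc-finger targets, and EHMT1 and EHMT2 write mono- and dimethylation in euchromatin. TRIM28 bridges KRAB zinc-finger proteins to SETDB1 and HP1. In mitosis, Aurora B phosphorylates the neighbouring serine and most HP1 leaves the chromosomes, an event of proteins that RNA levels do not show.

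The libraries held 10154187 to 11922979 counts. Summed markers of immature T cells were 3213 to 3340 CPM (counts scaled to a common library size) in shAURKB and 2943 to 3094 CPM in shGFP libraries, and all 13 of these markers had counts. Of 12 fibroblast or epithelial markers, 5 (COL3A1, DCN, LUM, THY1 and PDGFRB) were at 0 in every library. The sum of the 12 was 0.648 to 1.29 CPM in the shAURKB libraries, 0.985 and 1.17 CPM in shGFP replicates 2 and 3, and 27.2 CPM in shGFP replicate 1, and none reached the tested set. The part of that signal in the results was not tested; the calls of CBX5, EHMT2 and TRIM28 were made without shGFP replicate 1 as well. Of 9 B-cell or myeloid markers, 4 were at 0, and the sum was 16.3 to 20.5 CPM in shAURKB and 21.3 to 23.7 CPM in shGFP. The targeted gene AURKB had 39.8, 43.9 and 36.0 CPM in shAURKB replicates 1 to 3, against 100.4, 97.0 and 107 CPM in shGFP replicates 1 to 3. Its log2 fold change was -1.35 ± 0.08 (SE), at an adjusted p of 2.54e-04 (quasi-likelihood test of edgeR, Benjamini-Hochberg).

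All 9 genes passed the low-count filter. With AURKB shRNA, 3 rose (SUV39H1, TRIM28 and EHMT2), 2 fell (CBX5 and SETDB1) and 4 did not pass the test (CBX1, CBX3, SUV39H2 and EHMT1), at an edgeR adjusted p below 0.05 over 14818 tested genes. Of all tested genes, 12.5% were called higher and 10.9% lower, 23.3% in either direction. Among the 6297 genes at least as abundant as the least abundant of the 9, the shares were 23.3% higher and 10.8% lower, together 34.1%. The 9 genes had a median log2 fold change of 0.03, with a range of -0.47 to 0.44, beside a median of -0.0042 over all tested genes. The arms did not overlap in CPM for 6 of the 9 genes, where 42.6% of tested genes showed no overlap. That share covers all tested genes, and none was taken among genes as abundant as the 9. These are bulk libraries, so fewer cells of a type and less RNA per cell cannot be told apart. CBX5, TRIM28 and EHMT2 were still called when any 1 library was left out. SUV39H1 and SETDB1 were each called in 6 of 17 alternative analyses. Fits with 1 library left out called 2269 to 2383 genes in all, against 3456 with all libraries. Without both shGFP replicate 1 (high in fibroblast or epithelial markers) and shAURKB replicate 2 (low in CBX1), 7.57% of genes were called and CBX5 was the single one of the 9 among them.

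**Figure D1:**
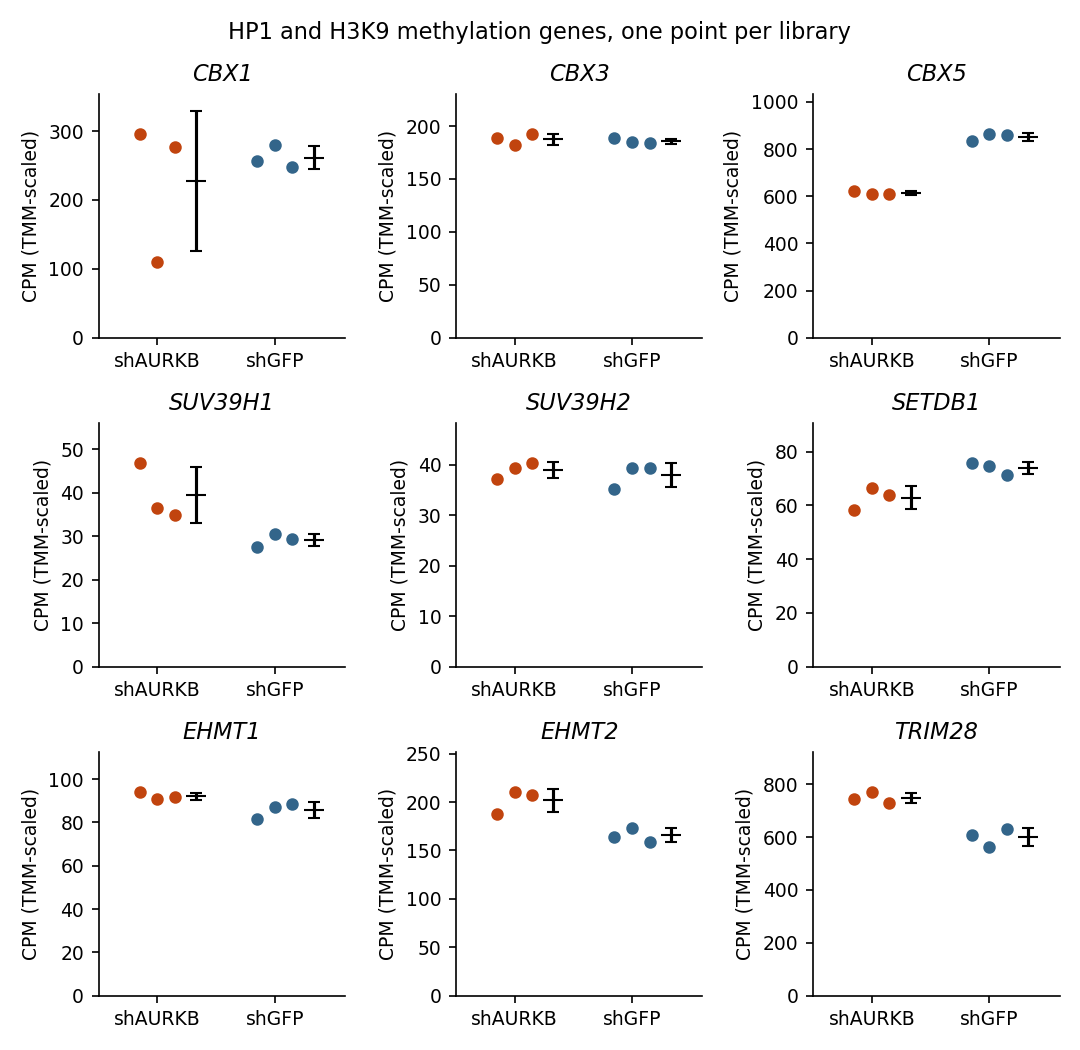
Each panel plots 1 gene in CPM scaled by TMM, with 1 point per library and the mean ± SD of 3 libraries beside it. All shAURKB points of CBX5 lie between 609 and 622 CPM, below the shGFP points at 832 to 863 CPM, and 1 shAURKB point of CBX1 stands at 110.1 CPM.

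The promoter letters of the genes that passed the test are shown because these are the genes whose RNA changed, and in opposite directions. The RefSeq promoter table (GRCh38.p14) held 8 of the 9 genes, all but TRIM28. Each window runs from 250 bases before to 50 bases after the start nearest to that in the expression table. Capitals mark the E-box CACGTG, the site that MYC with MAX and other E-box factors can bind. CBX5 is shown from chr12:54280073-54280372, minus strand, SETDB1 from chr1:150926013-150926312, plus strand, EHMT2 from chr6:31897649-31897948, minus strand, and SUV39H1 from chrX:48695304-48695603, plus strand.
CBX5: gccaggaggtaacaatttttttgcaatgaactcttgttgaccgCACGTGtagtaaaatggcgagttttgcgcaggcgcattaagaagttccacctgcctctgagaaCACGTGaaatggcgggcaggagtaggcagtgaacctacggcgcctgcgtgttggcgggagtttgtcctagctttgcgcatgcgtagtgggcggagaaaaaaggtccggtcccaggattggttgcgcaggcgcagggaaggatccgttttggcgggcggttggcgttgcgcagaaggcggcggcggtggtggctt
SETDB1: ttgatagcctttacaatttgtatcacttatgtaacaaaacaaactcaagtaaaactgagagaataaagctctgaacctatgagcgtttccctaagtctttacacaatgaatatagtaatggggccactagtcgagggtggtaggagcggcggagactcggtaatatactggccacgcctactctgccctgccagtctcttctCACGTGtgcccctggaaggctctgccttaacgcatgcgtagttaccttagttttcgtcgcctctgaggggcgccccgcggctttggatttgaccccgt
EHMT2: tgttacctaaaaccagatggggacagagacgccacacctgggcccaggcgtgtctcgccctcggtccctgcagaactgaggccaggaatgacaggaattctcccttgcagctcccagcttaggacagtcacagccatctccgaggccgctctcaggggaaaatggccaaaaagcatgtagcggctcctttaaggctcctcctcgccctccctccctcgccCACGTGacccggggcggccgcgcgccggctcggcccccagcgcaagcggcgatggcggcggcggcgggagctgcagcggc
SUV39H1: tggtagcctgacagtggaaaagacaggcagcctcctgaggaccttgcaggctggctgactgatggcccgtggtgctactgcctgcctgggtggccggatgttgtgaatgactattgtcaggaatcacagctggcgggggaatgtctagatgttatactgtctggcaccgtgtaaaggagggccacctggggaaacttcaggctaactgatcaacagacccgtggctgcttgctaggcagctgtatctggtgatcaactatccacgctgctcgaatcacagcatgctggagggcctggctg

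The E-box is its own reverse complement, so both strands were read at once. Its first base, counted from 0 at the RefSeq start, was at -207 and -144 in CBX5, at -48 in SETDB1 and at -30 in EHMT2. The start of HNRNPA1, on the other strand, lies inside the CBX5 window at 54280193. Both CACGTG sites of that window lie past this start, inside HNRNPA1 (54280193 to 54287088), which was not called (edgeR adjusted p = 0.621). The SUV39H1 window held none. In all, 3 of the 8 windows held CACGTG, against 7.26% of 35116 RefSeq windows of the same length. The genes with it went both ways, since CBX5 and SETDB1 fell and EHMT2 rose. An E2F-type motif (TTTCCCGC, TTTGGCGC or TTTCGCGC, either strand) stood in 1 window, that of CBX3, and in 2.74% of all windows. The cell cycle homology motif TTTGAA, on either strand, stood in the SUV39H2 window and in 15.2% of all windows. A match describes the letters without showing that a factor binds there.

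Of the HP1 genes, CBX5 fell, and CBX3 and CBX1 did not pass the test. CBX5 encodes HP1 alpha, the form most closely tied to pericentric heterochromatin (ENSG00000094916, GRCh38 chromosome 12, 54230940 to 54280133, minus strand). It had 622, 609 and 611 CPM in shAURKB replicates 1 to 3, against 832, 863 and 859 CPM in shGFP replicates 1 to 3. Every shAURKB library lay below every control library, and the gap exceeded the spread within either arm. Arm means were 614 ± 7.10 CPM for shAURKB and 852 ± 16.7 CPM for shGFP (SD, n = 3 each). This gave a log2 fold change of -0.47 ± 0.03 (SE; 95% interval -0.54 to -0.40; edgeR adjusted p = 2.45e-04), which left 72.1% of the control level. Only 41 of the 14818 tested genes had a smaller p. CBX5 was called in 17 of 17 alternatives, with log2 fold changes of -0.53 to -0.46.

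CBX3 encodes HP1 gamma, which is also found in transcribed euchromatin (ENSG00000122565, chromosome 7, 26201162 to 26213356, plus strand). It had 188, 182 and 192 CPM in shAURKB replicates 1 to 3, against 188, 185 and 184 CPM in shGFP replicates 1 to 3. The arms overlapped, and the spread within each arm covered the difference. Its log2 fold change, 0.01 ± 0.04 (SE), missed the threshold (edgeR adjusted p = 0.814), the 95% interval was -0.07 to 0.10, and the sign turned with upper-quartile scaling (-0.040). Setting CBX5 against CBX3 within a library, the log2 ratio of their CPM was 1.73, 1.74 and 1.67 in shAURKB and 2.14, 2.22 and 2.23 in shGFP libraries, a difference of -0.49 (exact two-sided permutation test p = 0.1, the smallest that 3 against 3 allows). Shares and ratios were compared 11 times in all, and the smallest Benjamini-Hochberg adjusted p over these exact permutation tests was 0.157, so none passes a threshold of 0.05.

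CBX1 encodes HP1 beta (ENSG00000108468, chromosome 17, 48070052 to 48101521, minus strand). It had 296, 110.1 and 276 CPM in shAURKB replicates 1 to 3, against 257, 279.8 and 248 CPM in shGFP replicates 1 to 3. The library shAURKB replicate 2 alone was low, at 44.4% of the lowest other library, and the other libraries of both arms overlapped. CBX1 had a log2 fold change of -0.20 ± 0.33 (SE; edgeR adjusted p = 0.698), which turned to 0.13 without that library (edgeR adjusted p = 0.222). The 95% interval of -0.97 to 0.57 spans 0. In the same library 10 of 9891 genes with a mean of at least 10 CPM were below 0.5 of their level in every other library, and the other libraries had 6 to 16 such genes. What sets the single low value was not tested.

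The balance of the 3 HP1 genes was compared per length, in the deposited FPKM (fragments per kilobase of gene model, scaled to library depth). CBX5 had 35.2 ± 0.440 FPKM with AURKB shRNA and 50.6 ± 0.938 FPKM with control shRNA, and CBX3 had 25.7 ± 0.636 FPKM in shAURKB and 26.4 ± 0.369 FPKM in shGFP (SD, n = 3 each). CBX1 had 77.8, 28.99 and 72.4 FPKM in the shAURKB libraries, against 70.0, 76.2 and 67.5 FPKM in the shGFP libraries. Summed HP1 was 139, 89.0 and 134 FPKM in shAURKB and 146, 154 and 145 FPKM in shGFP libraries, so every shAURKB sum lay below every control sum, with the low CBX1 library lowest. These FPKM are scaled to library totals, without the TMM factors of 0.979 to 0.984 in shAURKB and 1.017 to 1.02 in shGFP libraries. Those factors would bring the sums of the arms closer together. CBX3 made up 18.6%, 28.1% and 19.7% of the sum in shAURKB and 18.3%, 17.1% and 18.1% in shGFP libraries. The arm means of the CBX3 share differed by 4.30 percentage points (exact two-sided permutation test p = 0.1, the smallest possible), and by 1.29 points without shAURKB replicate 2. The CBX5 share was 25.6%, 39.3% and 26.2% in shAURKB and 33.8%, 33.3% and 35.3% in shGFP libraries, and its arms overlapped (exact two-sided permutation test p = 0.4). The levels of such shares, here and below, depend on the gene length used. Per kilobase of the longest coding transcript of GENCODE 29, CBX3 made up 33.5%, 46.6% and 35.1% in shAURKB libraries. In shGFP libraries CBX3 then made up 33.2%, 31.4% and 32.8%.

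**Figure D2:**
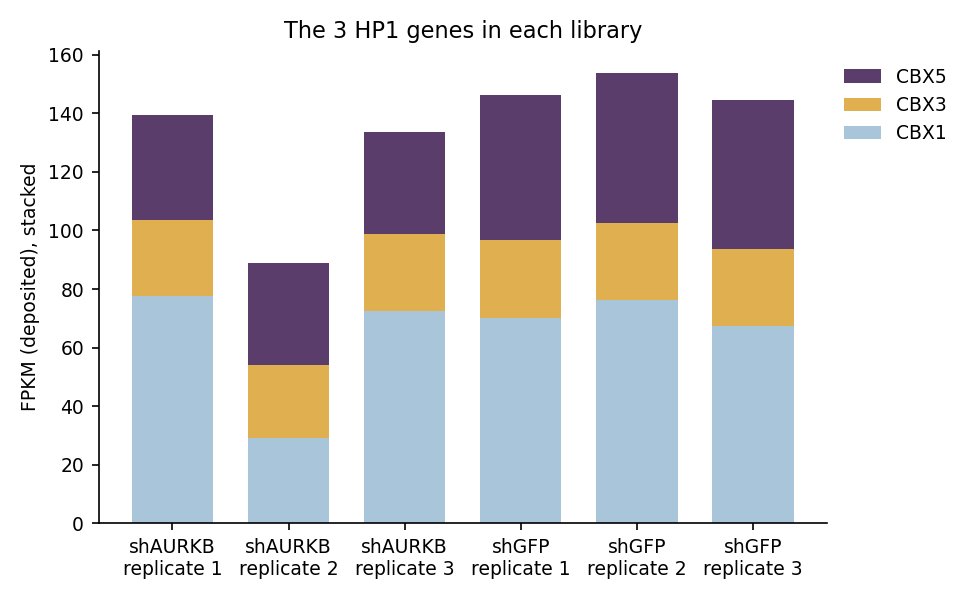
Stacked bars give the deposited FPKM of CBX1, CBX3 and CBX5 in each library, the 3 shAURKB libraries on the left. The CBX5 segment is about 35.2 FPKM in the shAURKB bars and 50.6 FPKM in the shGFP bars, and the CBX1 segment of shAURKB replicate 2 is 28.99 FPKM.

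SUV39H1 encodes the trimethylating enzyme of pericentric repeats (ENSG00000101945, chromosome X, 48695554 to 48709012, plus strand). It had 46.8, 36.5 and 34.9 CPM in shAURKB replicates 1 to 3, against 27.6, 30.5 and 29.3 CPM in shGFP replicates 1 to 3. All shAURKB libraries were above all controls, with replicate 1 the highest. Its log2 fold change was 0.44 ± 0.12 (SE; 95% interval 0.15 to 0.72; edgeR adjusted p = 0.0401). It was 0.30 without shAURKB replicate 1 (edgeR adjusted p = 0.055), and among the 6 fits with a library removed, the call was made in 1, that without shAURKB replicate 3. Over the alternatives its adjusted p ran from 0.0213 to 0.155 in edgeR, DESeq2 and limma.

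SUV39H2, its paralogue (ENSG00000152455, chromosome 10, 14878820 to 14904315, plus strand), had 37.1, 39.4 and 40.3 CPM in shAURKB replicates 1 to 3. The shGFP replicates 1 to 3 had 35.2, 39.4 and 39.4 CPM. The arms overlapped, and the change of 0.03 ± 0.07 on the log2 scale (SE; 95% interval -0.14 to 0.21) missed the threshold (edgeR adjusted p = 0.771). Its sign turned to -0.020 with upper-quartile scaling. SUV39H1 made up 59.2%, 51.7% and 49.99% of the pair's summed FPKM in shAURKB and 47.5%, 47.2% and 46.1% in shGFP libraries. The difference of 6.71 percentage points had an exact two-sided permutation test p of 0.1, the smallest possible, and was 3.90 points without shAURKB replicate 1.

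SETDB1 encodes the lysine methylating enzyme that TRIM28 recruits (ENSG00000143379, chromosome 1, 150926263 to 150964744, plus strand). It had 58.1, 66.5 and 63.8 CPM in shAURKB replicates 1 to 3, against 75.7, 74.8 and 71.4 CPM in shGFP replicates 1 to 3. The arms did not overlap. SETDB1 had a log2 fold change of -0.24 ± 0.07 (SE; 95% interval -0.39 to -0.08; edgeR adjusted p = 0.0408). The call was lost when any 1 library was left out (edgeR adjusted p = 0.0512 to 0.110) and in DESeq2 (adjusted p = 0.0629), while the direction held in 17 of 17 alternatives.

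EHMT2 encodes G9a, which like EHMT1 mono- and dimethylates the lysine in euchromatin (ENSG00000204371, chromosome 6, 31879759 to 31897687, minus strand). It had 188, 210.1 and 207 CPM in shAURKB replicates 1 to 3, against 164, 173 and 159 CPM in shGFP replicates 1 to 3. Every shAURKB library was above every control. EHMT2 had a log2 fold change of 0.29 ± 0.06 (SE; 95% interval 0.15 to 0.42; edgeR adjusted p = 0.0135), a level of 122% of the control. The call was made in 15 of 17 alternatives. EHMT1, which encodes the heterodimer partner GLP (ENSG00000181090, chromosome 9, 137618963 to 137870016, plus strand), had 93.9, 91.0 and 91.5 CPM in shAURKB replicates 1 to 3. The shGFP replicates 1 to 3 had 81.6, 87.0 and 88.4 CPM. Its arms did not overlap, but its change of 0.11 ± 0.05 on the log2 scale (SE; 95% interval -0.02 to 0.23) missed the threshold (edgeR adjusted p = 0.185). EHMT1 made up 18.2%, 16.1% and 16.4% of the pair's FPKM in shAURKB and 18.1%, 18.2% and 19.8% in shGFP libraries, a difference of -1.81 percentage points (exact two-sided permutation test p = 0.2). Per kilobase of the longest coding transcript the share was 25.8% to 28.7% in shAURKB and 28.5% to 30.9% in shGFP libraries.

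TRIM28, the KAP1 corepressor (ENSG00000130726, chromosome 19, 58544091 to 58550722, plus strand), had 744, 769.7 and 729 CPM in shAURKB replicates 1 to 3, against 609, 564 and 631 CPM in shGFP replicates 1 to 3. The lowest shAURKB library exceeded the highest control by more than the range within the shAURKB arm. Arm means were 748 ± 20.6 CPM for shAURKB and 601 ± 34.0 CPM for shGFP (SD, n = 3 each). TRIM28 had a log2 fold change of 0.31 ± 0.05 (SE; 95% interval 0.20 to 0.42; edgeR adjusted p = 4.93e-03), and it was called in 16 of 17 alternatives. TRIM28 and SETDB1, which act in 1 repressor complex, thus went opposite ways in the same libraries, with the limits on the SETDB1 call already stated.

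**Figure D3:**
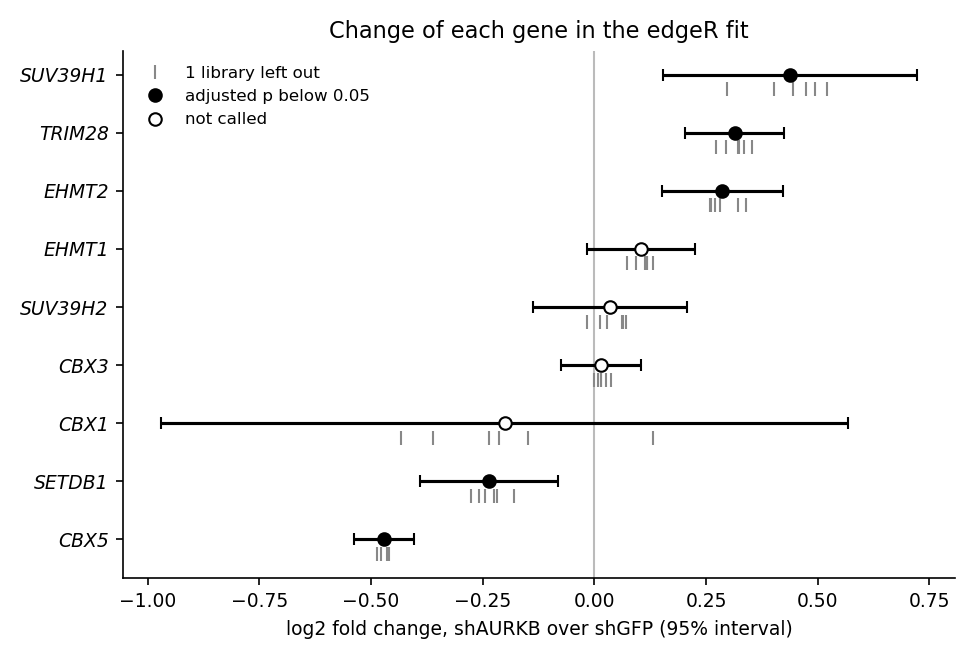
Points give the log2 fold change of shAURKB over shGFP with its 95% interval from the edgeR fit, filled where the adjusted p is below 0.05, and grey ticks give the value with each single library left out. CBX5 at -0.47 and SUV39H1 at 0.44 mark the ends, and the ticks of CBX1 run from -0.43 to 0.13.

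Set side by side per length, TRIM28 was highest in shAURKB libraries, with a median of 83.3 FPKM (81.2 to 86.2), followed by CBX1 (28.99 to 77.8), CBX5 (34.96 to 35.7), CBX3 (25.1 to 26.3) and EHMT2 (18.3 to 20.5 FPKM). SUV39H1 (5.67 to 7.63), SUV39H2 (5.25 to 5.67) and SETDB1 (4.83 to 5.53 FPKM) came next, and SUV39H2 overlapped both of its neighbours in this order. EHMT1 was lowest at 3.94 to 4.06 FPKM. In shGFP libraries TRIM28 (65.3 to 73.1 FPKM) and CBX1 (67.5 to 76.2 FPKM) overlapped, and the order below them was CBX5, CBX3, EHMT2, SETDB1, SUV39H2, SUV39H1 and EHMT1, without overlap of neighbours. By medians SETDB1 was below both SUV39H genes in shAURKB and above them in shGFP on this scale. These orders depend on the gene length. The deposited FPKM imply 7.14 kb for CBX3 and 22.7 kb for EHMT1, where the longest coding transcripts of GENCODE 29 have 2.13 and 5.14 kb. Per kilobase of those transcripts CBX3 exceeded CBX5 and EHMT1 lay above SUV39H1 in both arms. By medians SETDB1 was then above both SUV39H genes in both arms, so its place below them in shAURKB depends on the length used.

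Several of these genes share their start region with a gene on the other strand. CBX5 starts 60 bases from HNRNPA1 and CBX3 starts 367 bases from HNRNPA2B1, which encode abundant RNA-binding proteins of splicing. HNRNPA1 had 592, 579.8 and 468 CPM in shAURKB replicates 1 to 3, against 459.98, 477 and 598 CPM in shGFP replicates 1 to 3. The arms of HNRNPA1 overlapped (log2 fold change 0.10 ± 0.12, SE; edgeR adjusted p = 0.621), unlike those of CBX5 on the other side of the same start region. The log2 ratio of CBX5 to HNRNPA1 in CPM was 0.07, 0.07 and 0.39 in shAURKB and 0.86, 0.86 and 0.52 in shGFP libraries (exact two-sided permutation test p = 0.1, the smallest possible). HNRNPA2B1 averaged 1491 ± 136 CPM in shAURKB and 1490.04 ± 48.4 CPM in shGFP (SD, n = 3 each), and neither it nor CBX3 passed the test (edgeR adjusted p = 0.996 for HNRNPA2B1). Its near-zero log2 fold change had no stable sign over the scalings. SNX11, 1836 bases from the start of CBX1, and ARRDC1-AS1, 57 bases from that of EHMT1, had log2 fold changes of 0.35 ± 0.18 and 0.13 ± 0.22 (SE), neither past the threshold (edgeR adjusted p = 0.198 and 0.713). Beside the starts of SUV39H2, EHMT2 and TRIM28, RP11-398C13.6, C2 and RN7SL525P were below the low-count filter.

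**Figure D4:**
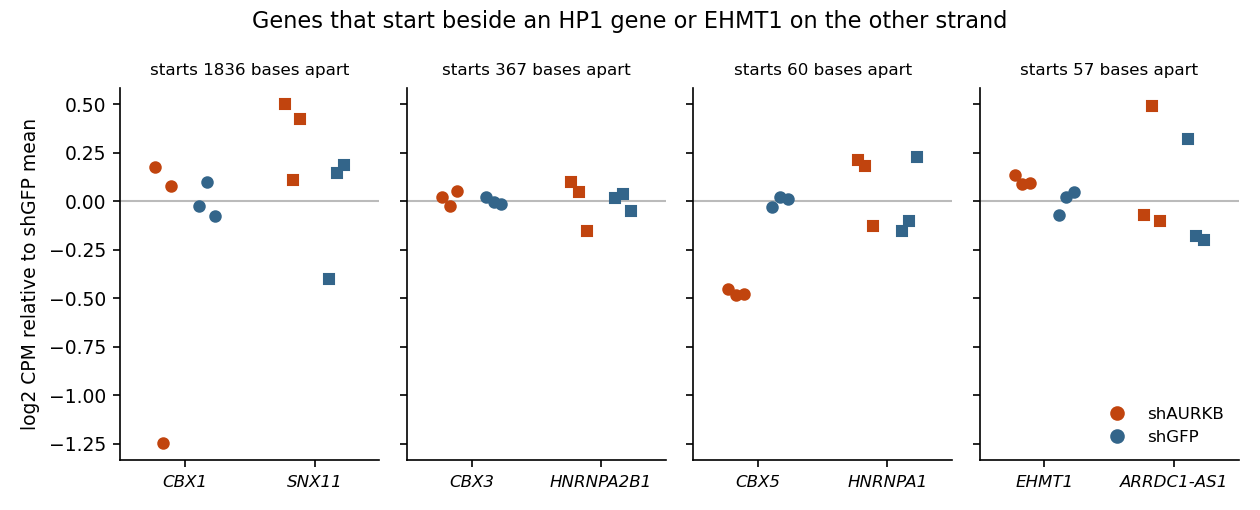
Each panel plots log2 CPM relative to the shGFP mean for an HP1 gene or EHMT1 (circles) and for the gene that starts beside it on the other strand (squares), with 1 point per library. The 3 shAURKB circles of CBX5 lie together below the controls, while the HNRNPA1 squares of the arms overlap.

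Reads of overlapping genes cannot be told apart where the counting ignores strand, and the sources used here do not give the strand setting. CERS2, a ceramide synthase gene, overlaps 4162 bases of SETDB1 on the other strand and rose by a log2 value of 0.27 ± 0.04 (edgeR adjusted p = 4.01e-03), opposite in sign to SETDB1. DCLRE1C, the Artemis nuclease gene, overlaps 6957 bases of SUV39H2 and fell by 0.45 ± 0.11 (edgeR adjusted p = 0.0283; called in 11 of 17 alternatives). CERS2 and DCLRE1C were picked for their overlap after their values were seen. HNRNPA2B1, not called, overlaps 368 bases of CBX3 and had 14109 to 18242 counts per library. AF196970.3, not called, overlaps 10050 bases of SUV39H1 on the other strand. It had 78 to 138 counts per library, beside 292 to 534 for SUV39H1. Genes not called or below the filter also overlap CBX5, EHMT1 and EHMT2. The part of such reads in the results was not tested. HP1 genes also have processed copies, among which reads can be split. The 9 CBX3 pseudogene rows summed to 71, 39 and 48 counts in shAURKB and 58, 34 and 63 in shGFP libraries, small beside the 1869 to 2223 counts of CBX3 per library. The 5 CBX1 copies and the 1 CBX5 copy held at most 3 counts in any library.

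Of 11 genes for enzymes that erase the mark, the H3K9 demethylases, all were tested, 1 rose, 2 fell and 8 were not called. The share called, 27.3%, is near the 23.3% of all tested genes. The demethylases had a median log2 fold change of 0.02. KDM3A, a JmjC demethylase of the mono- and dimethyl mark, fell by 0.38 ± 0.05 in log2 units (edgeR adjusted p = 3.24e-03), with 109, 116 and 105 CPM in shAURKB and 143, 139.7 and 148 CPM in shGFP libraries. KDM4A, which acts on the trimethyl mark, fell by 0.26 ± 0.06 (edgeR adjusted p = 0.02) and was called in 10 of 17 alternatives. KDM1A, the flavin-dependent LSD1, rose by 0.14 ± 0.03 (edgeR adjusted p = 0.0198) and was called in 5 of 17.

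Among partners of the methyltransferases and other SET or PRDM genes, 9 of 12 passed the filter. Of these, 2 rose, 0 fell and 7 missed the threshold (median 0.06), and the 22.2% called is near the 23.3% of all tested genes. L3MBTL2, a subunit of the PRC1.6 complex, which also holds G9a, rose by 0.40 ± 0.06 (edgeR adjusted p = 4.42e-03), with 62.4 ± 2.49 CPM in shAURKB and 47.4 ± 1.49 CPM in shGFP (SD, n = 3 each). WIZ, the zinc-finger subunit of the G9a and GLP complex, rose by 0.24 ± 0.05 (edgeR adjusted p = 0.0193) and was called in 7 of 17 alternatives. PRDM2, not called, had 12.4 CPM in shGFP replicate 1 and 52.9 to 56.8 CPM in all other libraries. PRDM2 was picked out for that library after its values were seen. PRDM16, MECOM and CDYL2 were below the filter.

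Of 22 HUSH, MORC and other silencing cofactor genes, 21 were tested, and 3 rose, 2 fell and 16 were not called (median -0.02), a called share of 23.8% beside 23.3% of all tested genes. MPHOSPH8, the chromodomain subunit of the HUSH complex, rose by 0.36 ± 0.07 (edgeR adjusted p = 0.012), with 78.3, 67.6 and 74.1 CPM in shAURKB and 55.4, 59.4 and 56.9 CPM in shGFP libraries. MORC2, the ATPase that works with HUSH, rose by 0.28 ± 0.06 (edgeR adjusted p = 0.0204) and was called in 10 of 17 alternatives. SMCHD1, a silencing factor of the inactive X chromosome, fell by 0.24 ± 0.03 (edgeR adjusted p = 2.58e-03). DNMT1, the maintenance DNA methyltransferase, fell by 0.21 ± 0.04 and TRIM24, a relative of TRIM28, rose by 0.16 ± 0.05 (edgeR adjusted p = 9.58e-03 and 0.0455), both picked after their values were seen. TRIM24 was called in 4 of 17 alternatives and in 1 of 6 fits with a library left out. The HUSH genes PPHLN1 and FAM208A, also picked afterwards, missed the threshold at 0.02 and -0.14. ADNP, a partner of HP1 in the ChAHP complex, was not called and was picked out after its values were seen. It had 74.7 CPM in shGFP replicate 2 and 226 to 259 CPM in all other libraries.

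Of 15 genes for enzymes that set serine 10 phosphorylation and for their partners, 14 were tested, with 3 higher, 3 lower and 8 not called (median 0.03). The share called was 42.9%, beside 23.3% of all tested genes and 34.1% of the abundant ones, and 1 of the 3 lower is AURKB, the target itself. RPS6KA5, the kinase MSK1 that phosphorylates serine 10 during signalling, fell by 0.70 ± 0.08 (edgeR adjusted p = 1.78e-03), with 13.4, 12.4 and 13.1 CPM in shAURKB and 20.5, 21.4 and 21.2 CPM in shGFP libraries. The RPS6KA5 call was lost in the 3 FPKM fits (limma adjusted p = 0.0543 to 0.0697), where the change was -0.25 on the log2(FPKM + 1) scale. GSG2, the Haspin kinase whose mark on threonine 3 recruits Aurora B, fell by 0.25 ± 0.06 (edgeR adjusted p = 0.0244) and was called in 9 of 17 alternatives and in 1 of 6 fits with a library left out. PPP1CA, a catalytic subunit of protein phosphatase 1, which removes the serine mark, rose by 0.32 ± 0.05 (edgeR adjusted p = 5.1e-03), with 267 ± 0.745 CPM in shAURKB and 214 ± 12.7 CPM in shGFP (SD, n = 3 each). That shAURKB SD, on 2733 to 3046 counts per library, is below what counting error alone would give on average. The PPP1CA paralogues PPP1CB and PPP1CC, at -0.10 and 0.12, missed the threshold. BIRC5, of the passenger complex, rose by 0.28 ± 0.05 (edgeR adjusted p = 7.49e-03; called in 16 of 17 alternatives). INCENP and CDCA8, of the same complex, missed the threshold at 0.10 and 0.02 (edgeR adjusted p = 0.524 and 0.755). AURKA, a related kinase, rose by 0.23 ± 0.07 (edgeR adjusted p = 0.047) and was called in 5 of 17 alternatives and in 1 of 6 fits with a library left out. GSG2, PPP1CB, PPP1CC, BIRC5, INCENP, CDCA8 and AURKA were picked after their values were seen.

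**Figure D5:**
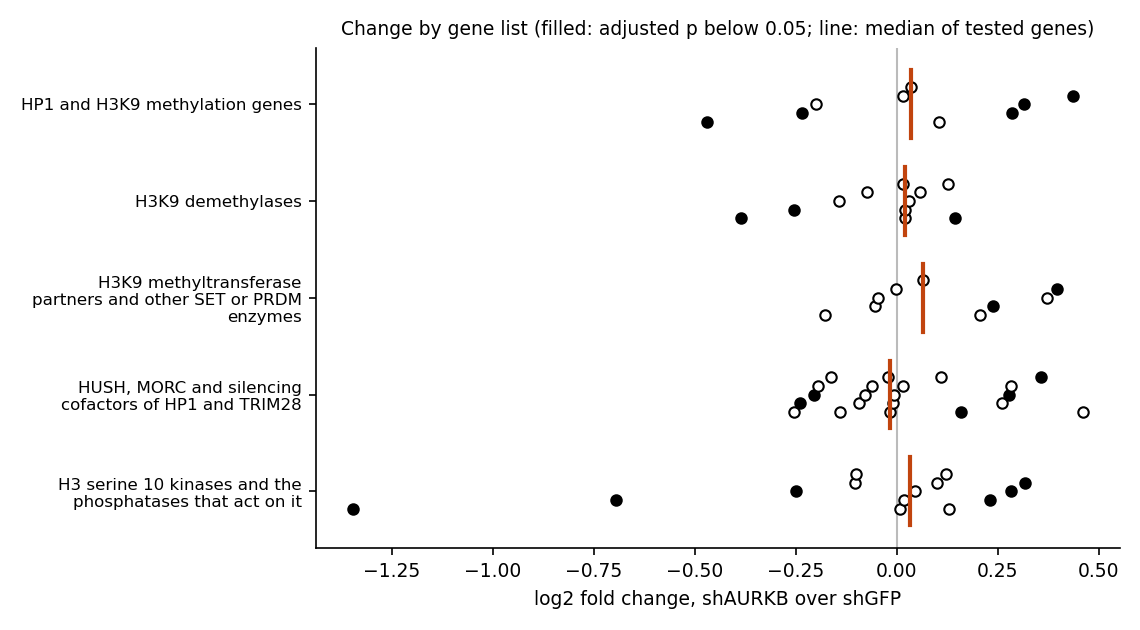
Each point is the log2 fold change of 1 tested gene, shAURKB over shGFP, filled where the edgeR adjusted p is below 0.05, and the vertical line is the median of the row. Every row except the methyltransferase partners, where no gene fell, holds filled points on both sides of 0, and the medians lie between -0.02 and 0.06.

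CBX5 had the largest absolute change of the 9 in the fit to all libraries, although SUV39H1 had a larger one in 3 of 6 fits with a library left out. CBX5 was compared in pattern with 9890 other genes of at least 10 CPM on average. The measure was the root mean square difference of log2 CPM over the 6 libraries, after centring each gene on its own mean. The nearest were PDK1, SOCS7 and TFDP2, at differences of 0.014, 0.018 and 0.019. PDK1 encodes a pyruvate dehydrogenase kinase and had a log2 fold change of -0.48 (edgeR adjusted p = 2.13e-03), SOCS7 a suppressor of cytokine signalling (-0.45, edgeR adjusted p = 8.78e-04) and TFDP2 the E2F partner DP2 (-0.49, edgeR adjusted p = 2.76e-04). The likeness is a description of 6 libraries that fall into 2 arms. Fold changes near that of CBX5 follow from the way these genes were chosen and are no separate result.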

How the data were processed

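RNA-seq of 6 CUTLL1 libraries was analysed, 3 per arm, grouped and numbered by the sample titles. For each Ensembl gene the authors deposited a whole-number count and an FPKM value per library. HISAT2 2.0.4, StringTie 1.3.0, edgeR and GRCh38 (hg38) are named, without roles, per the submitters' processing notes. Dividing counts by library total and by a fixed gene length gives back the deposited FPKM (largest relative deviation 6.9e-06 over 9460 genes). Positions are those of the table, and strands come from GENCODE 29 by identifier.

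Low genes were removed by filterByExpr (at least 10 counts, total at least 15), leaving 14818 genes, and TMM scaling was applied (CPM throughout, except marker sums, which use total counts). shAURKB was set against shGFP in edgeR 4.0.16 (R 4.3.3; quasi-likelihood, two-sided, no covariate), with Benjamini-Hochberg adjustment over these genes and a threshold of 0.05. SE is the log2 fold change divided by the root of F, and intervals use its degrees of freedom. Every edgeR p in the text is from this fit, or from its repeat without a library where one is named as left out. The test was checked on simulated counts with few changed genes. There, unchanged genes made up a larger share of its calls than the threshold states. The test missed most changes of 1.25-fold and 1.5-fold, placed in tested genes drawn at random. Far fewer genes changed there than the 23.3% called here, so these rates do not carry over to the real fit. The calls just under the threshold (SUV39H1, SETDB1), each made in 6 of 17 alternatives, are weak evidence. A missed call does not show that a gene is unchanged. Shares and ratios were compared by exact permutation over libraries. Library totals were 10154187 to 11922979 counts.

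The 17 alternatives comprised 2 other scalings (RLE, upper-quartile), 2 other tools (DESeq2 1.42.0 and voom of limma 3.58.1), 2 other filters (none; 1 CPM or more in 3 libraries), a block for the replicate number, leaving out single libraries, limma-trend on log2(FPKM + 1) or log2(FPKM + 0.1) with a minimum of 0.5 FPKM in 3 libraries or none, and 2 libraries left out together. The members and lists were chosen with earlier results of these data known. The rule for list genes names the 3 called members with the largest change in each list. Other list genes, and genes overlapping a member, were picked after their values were seen. Libraries of an arm differed by a chi-square of 6.73 to 7.61 per degree of freedom, so none was a copy. The design text calls the replicates biological.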

Additional observations from a re-analysis of the deposited data

How the results depend on the processing

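CBX5 was called in all 17 alternatives, EHMT2 in 15 and TRIM28 in 16. The 3 members called higher became 2 or 3 when 1 library was left out, 1 on log2(FPKM + 1) without a minimum, and 0 without shGFP replicate 1 and shAURKB replicate 2 together, an alternative chosen after seeing the data with 2 libraries per arm, in which 7.57% of 15011 genes were called. The 2 called lower became 1 (CBX5) when any 1 library was left out, and 1 in DESeq2, with no low-count filter, with both libraries left out, on log2(FPKM + 1) without a minimum and with the replicate block. Calls over all genes also became fewer, from 3456 in the main fit to 2269 to 2383 with 1 library left out. They were 2668 in DESeq2, 2716 with no low-count filter and 2078 on log2(FPKM + 1) without a minimum. Members lost in those fits were thus lost along with many other genes. SUV39H1 was also lost with upper-quartile scaling, where 3412 genes were called. Same-numbered libraries did not deviate together (correlations -0.09 to -0.03), so the numbers do not pair them. With the block 2313 genes were called instead of 3456, and the H3K9 demethylases had 0 higher and 1 lower, the methyltransferase partners 1 higher and the silencing cofactors 1 higher.

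The higher demethylase (KDM1A) was also lost with upper-quartile scaling, DESeq2 and all 3 FPKM fits (0 each), the methyltransferase partners had 1 higher in the FPKM fits, and the silencing cofactors had 1 on log2(FPKM + 1) without a minimum. With 1 library left out, demethylases had 0 to 1 higher and 1 to 2 lower, methyltransferase partners 1 to 2 higher, silencing cofactors 1 to 3 higher and serine 10 genes 2 to 4 higher and 2 to 3 lower. The linear CBX5 to CBX3 ratio, added after seeing the data, differed between arms by -0.55 in FPKM (-0.58 to -0.53 with 1 library left out), -1.31 in counts and -0.24 per kilobase of the longest coding transcript. This follows from the length, which multiplies a linear ratio and leaves its log2 difference (-0.49) as it is. The AURKB fold change was called in 17 of 17 alternatives.

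Signs turned in genes near 0 or resting on 1 library. CBX1 was 0.13 without shAURKB replicate 2 (-0.43 to 0.13 over single libraries left out) and 0.12 with both libraries left out. CBX3 was -0.040 with upper-quartile scaling and -0.036, -0.037 and -0.036 in the FPKM fits. SUV39H2 was -0.020 with upper-quartile scaling, -0.026 with both libraries left out, -0.013, -0.015 and -0.013 in the FPKM fits, and -0.017 to 0.071 over single libraries left out. HNRNPA2B1 was -0.053 with upper-quartile scaling, -0.054, -0.054 and -0.054 in the FPKM fits, -3.24e-04 in limma-voom, -4.36e-03 with at least 1 CPM in 3 libraries, -2.83e-03 with the replicate block, and -0.048 to 0.077 over single libraries left out. PRDM2 ran from -0.059 (without shGFP replicate 1) to 0.67 and ARRDC1-AS1 from -0.083 (without shAURKB replicate 2) to 0.32. None of these was called in any alternative, and the cause was not tested. Higher genes made up 53.4% of all calls, and 38.8% with upper-quartile scaling. Of the 9 genes, SUV39H1 had the fewest counts (292 in shGFP replicate 1). Its counting error in shGFP was 5.59%, above the 5.03% spread between libraries, and in SETDB1 3.51% against 3.07%, so depth limits the precision of these controls.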
